A study of Mus musculus with 17 samples.

Results

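The genes described here are the clustered replication-dependent histone genes of the mouse, taken as every gene whose symbol starts with Hist1h, Hist2h, Hist3h or Hist4h. There were 70 of them among the 53313 gene identifiers that all count files share. They encode the linker histone H1 (6 genes) and the core histones H2A (20 genes), H2B (19 genes), H3 (12 genes) and H4 (13 genes). In GRCm38, 56 carry the name Hist1 and lie on chromosome 13, in 1 cluster except for the distant pseudogene Hist1h2al, 10 lie in Hist2 on chromosome 3, 3 in Hist3 on chromosome 11, and Hist4h4 stands alone on chromosome 6. Of the 70, 67 are annotated as protein coding and 3 as pseudogenes.

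The study asked how tubular cells of the kidney change with senescence and with age, and it sequenced poly(A)-selected RNA from 17 samples. Non-senescent PTEC (primary tubular epithelial cells, cultured from tubular fragments of C57BL/6JRj mouse kidneys) were harvested at day 6 without irradiation (n = 4), and senescent PTEC at day 16 after 10 Gy of γ-irradiation (n = 4). Irradiation and 10 more days in culture therefore came together and cannot be told apart. A piece of the right kidney of male C57BL/6JRj wild-type mice, with all its cell types, was taken at 3, 12 and 24 months of age (n = 3 each), so in these samples fewer cells of a type and less RNA per cell cannot be told apart.

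Replication-dependent histone mRNAs are the only metazoan mRNAs of dividing cells that normally end in a stem-loop and not in a poly(A) tail. The stem-loop is bound by SLBP (stem-loop binding protein), the transcript is cut just after it by a complex that includes the U7 snRNP, and the mRNA is made in S phase and decays when replication stops. Some of these genes also carry ordinary polyadenylation signals further downstream, and polyadenylated transcripts of some are known from differentiated and non-dividing cells. Poly(A) selection keeps those transcripts and discards most of the stem-loop-ended ones, so the levels below are mainly those of polyadenylated histone transcripts. The selection was not complete: 6 RNAs without a poly(A) tail (Rn7sk, Rmrp, Rpph1, Terc, Rny1 and Rny3) still summed to 0.615 to 1.69 CPM in non-senescent PTEC, 1.13 to 2.13 CPM in senescent PTEC and 0.270 to 1.03 CPM in kidneys, so stem-loop-ended transcripts cannot be told apart in genes of such low levels.

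The element that ends the usual transcript was looked for in the annotated transcripts of the 70 genes (GENCODE M21) and was found in 44. It is a 6-base stem, a 4-base loop that starts with thymines, and the mirrored stem (1 mismatch allowed), and it is shown because transcripts that end at it lack the tail that the libraries selected for. Capitals mark the 2 arms of the stem.

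Stem-loop of 26 genes, among them Hist1h1c, Hist1h1d, Hist1h1e, Hist1h2be, Hist1h3b and Hist2h3c2: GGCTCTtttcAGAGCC
Stem-loop of 7 H4 genes, among them Hist1h4h, Hist1h4m and Hist1h4c: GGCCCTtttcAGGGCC
Stem-loop of 6 genes, among them Hist1h2bb and Hist1h3e: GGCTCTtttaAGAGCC
Stem-loop of Hist1h4i and Hist2h4: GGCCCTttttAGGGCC
Stem-loop of Hist1h4j and Hist1h4b: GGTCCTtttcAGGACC

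In 25 genes the annotated transcript runs more than 50 bases past the stem-loop, which is 840 bases for Hist1h1c, 1153 for Hist1h1e, 1861 for Hist1h2be, 4884 for Hist1h1d and 330 for Hist1h4i. In 19 genes it ends within 50 bases of it, for example 46 bases after it in Hist1h4h and 3 in Hist1h4m. For 10 genes, Hist1h2bc and Hist2h2be among them, the annotated transcript passes the stop codon but holds no such element. In Hist1h2af and Hist1h2ah it passes the stop codon by only 1 and 2 bases. For 13 other genes the annotation holds the coding part alone, and 3 have no coding transcript. The element was searched for past the stop codon, so it could not have been found in these genes.

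Promoters from RefSeq (GRCm38.p6) could be matched by position to 61 of the 70 genes. The 4 below are shown because they belong to 2 linker histone genes that rose in senescent PTEC and to 2 H4 genes of which one rose and the other did not. Each spans 250 bases before the RefSeq start and 30 after it. Capitals mark TATAAA (the usual TATA box), the motif CCAAT that NF-Y binds, ATTTGCAT (the octamer of H2B promoters), AAACACA (known as the H1 box) and GGTCCG, searched on both strands over the window of 250 bases before to 50 after the start, where matches may overlap.

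Hist1h1c promoter, chr13:23738557-23738836, plus strand: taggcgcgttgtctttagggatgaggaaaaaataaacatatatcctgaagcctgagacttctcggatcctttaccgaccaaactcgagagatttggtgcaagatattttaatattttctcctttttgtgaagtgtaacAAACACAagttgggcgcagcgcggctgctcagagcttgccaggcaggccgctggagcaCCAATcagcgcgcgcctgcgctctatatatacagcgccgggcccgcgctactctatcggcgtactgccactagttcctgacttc
Hist1h1e promoter, chr13:23622529-23622808, minus strand: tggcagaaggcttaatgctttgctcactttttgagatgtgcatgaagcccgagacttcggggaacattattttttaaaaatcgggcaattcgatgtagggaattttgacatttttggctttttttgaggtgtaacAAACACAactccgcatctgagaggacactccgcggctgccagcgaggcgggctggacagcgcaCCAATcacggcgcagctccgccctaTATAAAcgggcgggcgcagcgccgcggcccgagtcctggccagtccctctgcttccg
Hist1h4h promoter, chr13:23530794-23531073, plus strand: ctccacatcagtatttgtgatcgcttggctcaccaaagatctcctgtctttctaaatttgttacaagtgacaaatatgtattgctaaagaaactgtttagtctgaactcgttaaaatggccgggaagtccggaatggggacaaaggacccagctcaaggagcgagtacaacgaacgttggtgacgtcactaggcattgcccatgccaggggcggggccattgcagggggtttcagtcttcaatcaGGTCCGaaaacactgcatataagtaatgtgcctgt
Hist1h4i promoter, chr13:22041333-22041612, minus strand: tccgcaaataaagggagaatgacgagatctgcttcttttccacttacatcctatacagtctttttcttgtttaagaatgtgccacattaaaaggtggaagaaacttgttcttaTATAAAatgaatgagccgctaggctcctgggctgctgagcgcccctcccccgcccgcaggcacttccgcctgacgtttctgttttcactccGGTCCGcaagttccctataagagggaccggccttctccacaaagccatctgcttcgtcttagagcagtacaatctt

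CCAAT was found in 52 of the 61 promoters (85.2%, against 37.4% of all 32817 promoters in the table), in every H1, H2A, H2B and H3 promoter and in 3 of 12 H4 promoters. TATAAA was found in 34 (55.7% against 13.6%) and the octamer ATTTGCAT in 13 (21.3% against 1.7%), of which 7 belong to H2A and 6 to H2B genes. AAACACA was found in 4 of 5 H1 promoters and in 8 of all 61 (13.1% against 7.2%). GGTCCG was found in 11 of 12 H4 promoters and in 13 of all 61 (21.3% against 8.3%). Hist1h4h and Hist1h4i both hold GGTCCG, and only Hist1h4i of that pair holds TATAAA. That match lies far upstream of the start, and the search took no account of position. Nearer the start both genes hold tataag, which was not searched for. All motifs named here are matches of letters and not shown to be used.

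The libraries held 26963442 to 35409144 counts for PTEC and 37311247 to 66894790 for kidneys. Levels are given as CPM, the counts scaled to library size after TMM normalization. PTEC and kidneys were scaled separately, so levels are set side by side across them only as a description. At 0 counts in all 17 libraries were 4 genes, Hist1h2br, Hist1h2aa, Hist2h2aa1 and Hist2h3c1, and only 22 reached a mean of 1 CPM in any group. Gm20634 covers 90.3% of the exon bases of Hist2h2aa1 and 100% of those of Hist2h3c1 on the same strand. The 0 counts of these 2 genes therefore need not mean that transcripts were absent. After the filter on low counts, 31 genes were tested in PTEC, 17 in kidneys and 16 in both. Histone genes resemble each other: for 27 of the 70, fewer than 50% of the 76-base windows of their exons are unique among annotated transcripts. Exon bases are shared with another gene by 26, of which 7 share them on the same strand. The counts of such genes are less certain, though the strand setting of the counting is not known. The summed level of 1135 olfactory receptor genes, most of which are expected to be silent outside the nose, was 0.000739 to 0.00118 CPM per kb of exon in non-senescent and 0.00251 to 0.00422 in senescent PTEC, and so was also higher in the senescent cultures. Its part in the results was not tested.

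Tubular identity of the cultures was partial by the fixed markers. The summed proximal tubule markers were at 116, 142, 121 and 658 CPM in the non-senescent cultures and at 339, 207, 150.5 and 326 CPM in the senescent ones, against 6043 to 13670 CPM in kidneys. Non-senescent culture 4 stood apart from the other 3, and without it none of the histone calls given below was lost. Genes of other cells were also present: the summed fibroblast markers (6 genes) ranged from 14.5 to 102 CPM in non-senescent and from 108 to 411 CPM in senescent PTEC. Of these 6 genes 4 were called up-regulated, and their part in the histone results was not tested. The summed macrophage markers overlapped between the groups, at 82.0 to 123 CPM and 56.8 to 224 CPM. The summed leukocyte markers also overlapped, at 14.9 to 31.2 CPM and 8.19 to 27.9 CPM. Of their 5 tested genes 3 were down-regulated in senescent PTEC (median log2 fold change -0.94), and their part was not tested either.

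In these poly(A)-selected libraries the summed transcripts of each of the 5 histone classes were higher in senescent than in non-senescent PTEC. Summed over the 70 genes, the level was 134, 142, 210 and 144 CPM in the 4 non-senescent cultures and 597, 541, 668 and 507 CPM in the 4 senescent ones. Every senescent culture was above every non-senescent one, and the means differed 3.67-fold (157 ± 35.1 against 578 ± 70.5 CPM, SD, n = 4 each). The ratio of means was largest for H3 (6.27) and H1 (4.54), followed by H2A (3.74), H4 (2.54) and H2B (2.52). Hist1h1c and Hist1h2bc made up 75.9% of the sum in non-senescent and 78.0% in senescent PTEC; without them the means were 38.0 and 127 CPM.

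**Figure D1:**
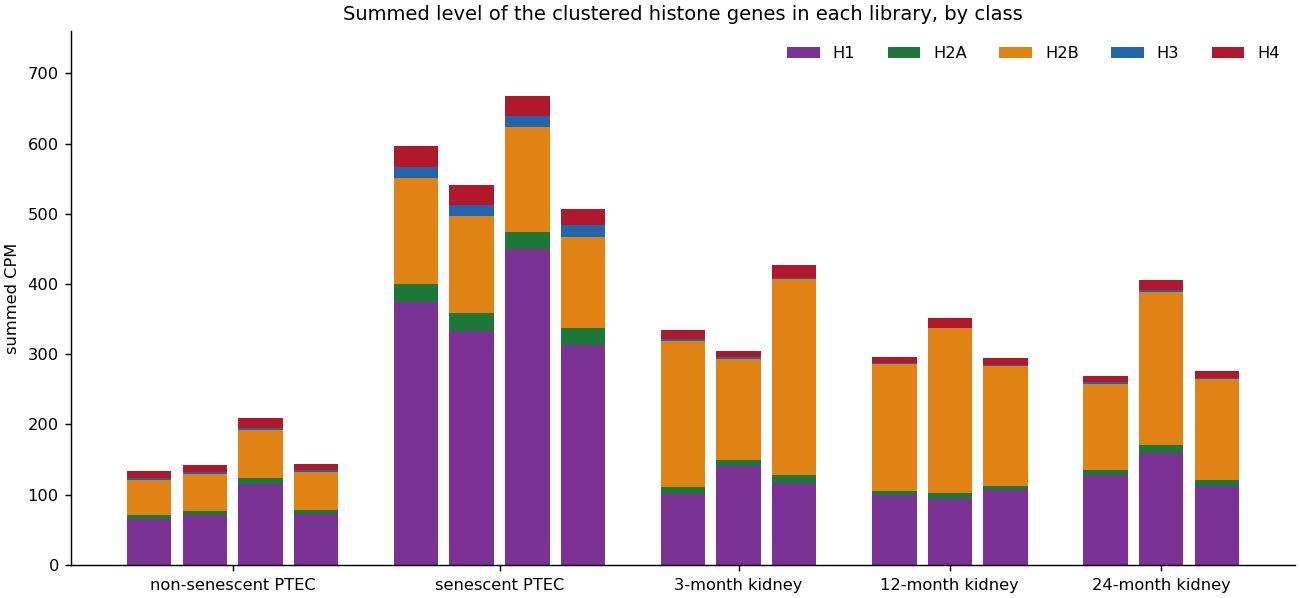
Summed CPM (vertical axis) of the 70 clustered histone genes in each of the 17 libraries, stacked by histone class; each bar is one library and PTEC and kidneys were scaled separately. The 4 senescent PTEC libraries lie between 507 and 668 CPM and the 4 non-senescent ones between 134 and 210 CPM, and H1 and H2B make up most of every bar.

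By edgeR's quasi-likelihood test with Benjamini-Hochberg adjustment over all 15434 genes tested, 24 of the 31 tested genes were up-regulated in senescent PTEC (adjusted p below 0.05 and log2 fold change above 0.5), where 20.1% of all tested genes were. None was down-regulated by this test (19.7% of all tested genes were), also none by DESeq2, and 25 of the 31 had an unadjusted p below 0.05 in either direction. For 25 of the 31 the groups did not overlap and were higher in senescent PTEC (22.1% of all tested genes were higher in this way and 19.9% lower). The median log2 fold change of the 31 was 2.51, against -0.00 over all tested genes. Part of this follows from the filter. Only 14 of the 31 reached its minimum (0.334 CPM) in all 4 non-senescent cultures, and of these 10 were up-regulated. Another 15 reached it in all senescent but not in all non-senescent cultures. Such genes were tested because they were high in senescent PTEC, so a rise was largely set in advance. Of these 15 only Hist1h2bb was not called. Without the filter 66 clustered histone genes were tested and 31 of these 66 were up-regulated. Over all genes 3632 were then up-regulated, against 3100 with the filter. Pairing the cultures by their number changed none of the 24 calls (24 with the pairing).

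The linker histones, which bind the DNA between nucleosomes, were the class with the highest summed level in every PTEC culture. Their sum was 65.3 to 116 CPM in non-senescent and 313 to 450 CPM in senescent PTEC. Hist1h1c (chr13:23738808-23740367, plus strand) was at 63.2, 68.3, 113 and 69.0 CPM in the non-senescent cultures and at 341, 308, 428 and 287 CPM in the senescent ones. The groups did not overlap, and the culture numbered 3 was the highest of both (log2 fold change 2.12, SE 0.22, adjusted p = 8.32e-05, edgeR). Hist1h1d rose from 1.38, 1.51, 1.88 and 1.74 CPM to 17.6, 14.7, 13.6 and 12.0 CPM (log2 fold change 3.15, SE 0.20, adjusted p = 5.14e-06, edgeR). For Hist1h1e the values were 0.400, 0.525, 0.549 and 0.775 CPM against 14.0, 10.1, 7.997 and 12.6 CPM (log2 fold change 4.31, SE 0.29, adjusted p = 6.89e-06, edgeR). Thus even the lowest senescent culture lay above the highest non-senescent one for each of the 3. Hist1h1b, which reached the filter minimum in senescent cultures alone, rose from a mean of 0.143 to 0.878 CPM (2.61 on the log2 scale), while Hist1h1a and the testis gene Hist1h1t stayed below the filter, with at most 13 counts in any PTEC library.

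Among the H2B genes Hist1h2bc (chr13:23684199-23692908, plus strand) was the most abundant. It rose from 34.8, 37.6, 53.7 and 38.1 CPM to 115, 104.5 and 123 CPM in cultures 1 to 3 and 100 CPM in culture 4 (log2 fold change 1.43, SE 0.16, adjusted p = 0.000126, edgeR), again without overlap. Hist1h2be was at 0.769, 0.689, 1.14 and 1.92 CPM against 17.3, 16.4, 11.4 and 15.4 CPM (log2 fold change 3.75, SE 0.34, adjusted p = 3.6e-05, edgeR). Its annotated exons share 496 bases with Hist1h1e on the same strand, so the increases of these genes are not fully separate measurements. Hist1h2bg and Hist1h2bj were also up-regulated (1.57 and 2.99 on the log2 scale). Hist1h2bj reached the filter minimum in all senescent but not in all non-senescent cultures. The 4 other tested H2B genes were not called. Hist2h2be was at 11.0, 11.0, 10.2 and 11.4 CPM in non-senescent and at 9.91, 11.2, 7.40 and 8.05 CPM in senescent PTEC, so that the groups overlapped (log2 fold change -0.26, SE 0.17, adjusted p = 0.247, edgeR). Hist3h2ba and Hist1h2bh had log2 fold changes of -0.42 and 0.33. Hist1h2bb was higher in every senescent culture (0.432 to 0.587 CPM against 0.148 to 0.392 CPM) but missed the threshold (log2 fold change 0.89, adjusted p = 0.0757, edgeR), except without non-senescent culture 3 (adjusted p = 0.0490).

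Of the H2A genes 5 of 6 tested were up-regulated. Among them Hist1h2ab, Hist1h2ad and Hist2h2aa2 reached the filter minimum in all senescent but not in all non-senescent cultures. Of the windows of Hist1h2ab 44.7% are unique, and of those of Hist1h2ad 34.6%, so their counts are less certain. Hist3h2a was at 3.69, 3.97, 4.86 and 4.39 CPM against 12.5, 14.0, 12.2 and 11.7 CPM (log2 fold change 1.57, SE 0.17, adjusted p = 8.81e-05, edgeR); 33.0% of its exon bases are also exon of Trim17 on the same strand. Hist1h2ab rose from 0.338, 0.427, 0.314 and 0.258 CPM to 3.57, 2.48, 4.43 and 4.80 CPM (log2 fold change 3.49, SE 0.31, adjusted p = 3.53e-05, edgeR). Hist2h2aa2 had a log2 fold change of 4.77 (SE 0.58, adjusted p = 0.000206, edgeR), from 2, 1, 0 and 1 counts to 46, 27, 19 and 38 counts. No 76-base window of its exon is unique, since the near-identical Hist2h2aa1 lies beside it, so its counts cannot be assigned with certainty. Hist1h2ae was the exception, with 0.338 ± 0.0785 CPM in senescent and 0.542 ± 0.163 CPM in non-senescent PTEC (SD, n = 4 each; log2 fold change -0.67, adjusted p = 0.119, edgeR). It was called down-regulated only when non-senescent culture 4 was left out (adjusted p = 0.0428).

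The 4 tested H3 genes were up-regulated. However, 3 of them (Hist2h3c2, Hist1h3d and Hist1h3e) reached the filter minimum in all senescent but not in all non-senescent cultures. Only Hist1h3b reached it in every culture of both groups. Hist2h3c2 was at 0.523, 0.328, 0.745 and 0.664 CPM in non-senescent and at 6.63, 7.94, 5.38 and 6.39 CPM in senescent PTEC (log2 fold change 3.54, SE 0.29, adjusted p = 2.21e-05, edgeR). Hist1h3b was at 0.646, 0.525, 0.628 and 0.517 CPM against 4.95, 3.32, 6.43 and 7.08 CPM (log2 fold change 3.22, SE 0.30, adjusted p = 4.49e-05, edgeR). The groups were far apart for both. Only 37.5% of the windows of Hist2h3c2 and 41.5% of those of Hist1h3b are unique, however, so their counts are less certain. This share was 77.9% for Hist1h3d and 41.1% for Hist1h3e. Hist1h3d and Hist1h3e rose by 2.61 and 1.82 on the log2 scale from means of 0.375 and 0.147 CPM.

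H4 genes encode nearly the same protein but differed widely in their values. Hist1h4h (chr13:23531050-23531519, plus strand, 57.7% of windows unique) was at 0.338, 0.361, 0.628 and 0.738 CPM in the non-senescent cultures and at 11.5, 11.0, 9.81 and 7.29 CPM in the senescent ones (log2 fold change 4.27, SE 0.31, adjusted p = 1.09e-05, edgeR). Hist1h4i (chr13:22040636-22041362, minus strand, 78.1% of windows unique) was at 8.30, 7.75, 11.7 and 6.46 CPM against 10.7, 9.45, 9.75 and 7.22 CPM, with full overlap of the groups (log2 fold change 0.12, SE 0.22, adjusted p = 0.682, edgeR). Hist1h4i was thus the H4 gene with the highest level in non-senescent PTEC. Per kb of exon, Hist1h4h (21.1 ± 3.98 CPM per kb) was above Hist1h4i (12.8 ± 2.03 CPM per kb, SD, n = 4 each) in senescent PTEC. Hist1h4m rose from 3, 2, 2 and 3 counts to 71, 56, 41 and 56 counts (log2 fold change 4.31, SE 0.37, adjusted p = 2.6e-05, edgeR), with 11.0% of its windows unique. Hist1h4a, Hist1h4c, Hist1h4d, Hist1h4j and Hist2h4 rose by 1.91 to 2.99 on the log2 scale. These genes and Hist1h4m reached the filter minimum in all senescent but not in all non-senescent cultures. Of the H4 genes that reached it in every culture of both groups, Hist1h4h and Hist1h4i, only Hist1h4h was called. Hist1h4k, which has 32.1% of its windows unique, was not called (0.33).

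**Figure D2:**
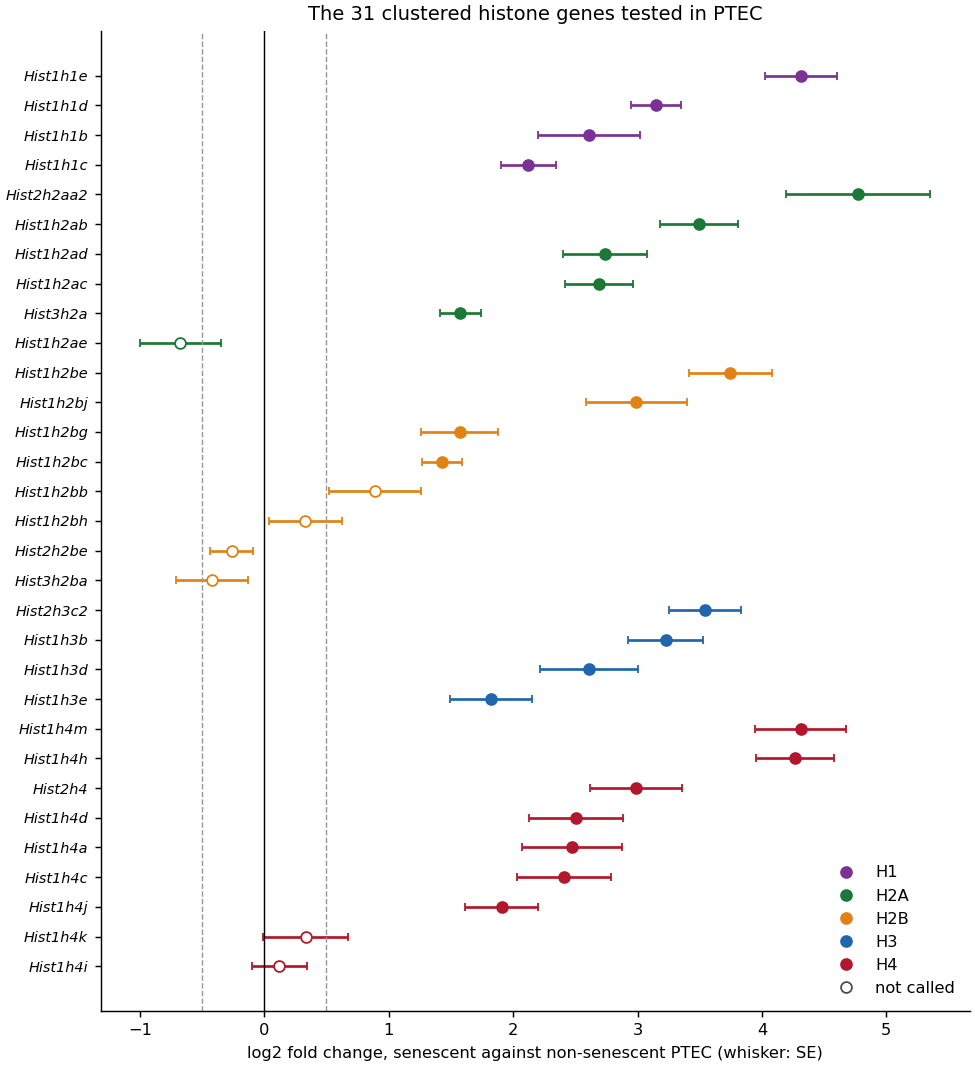
Log2 fold change of senescent against non-senescent PTEC (horizontal axis) for the 31 tested clustered histone genes, grouped and coloured by class; whiskers are the SE, filled points were called and open points were not, and dashed lines mark a log2 fold change of 0.5 either way. The 24 called genes lie between 1.43 and 4.77, and the open points are 4 H2B genes, 2 H4 genes and Hist1h2ae.

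In Hist1 20 of 25 tested genes were up-regulated, in Hist2 3 of 4 and in Hist3 1 of 2, counts that include genes tested only because they were high in senescent PTEC. Restricting the count to genes with at least 50% unique windows left 17 of 23, and restricting it to genes that share no exon base with another gene also left 17 of 23. Among the 21 up-regulated genes with a matched promoter, TATAAA was found in 12, CCAAT in 18, ATTTGCAT in 4, AAACACA in 4 and GGTCCG in 5. Among the 6 genes not called these were found in 5, 4, 2, 0 and 3.

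Genes that accompany replication-dependent histones in dividing cells moved the other way. All 16 genes of the S phase and replication list were down-regulated in senescent PTEC (median log2 fold change -2.87), from Ccne1 (-1.57) to Ccna2 (-5.52). Rrm2, which makes deoxynucleotides, fell from 364 to 15.3 CPM and the helicase subunit Mcm5 from 162 to 7.65 CPM. All 8 mitosis genes were down-regulated too (median -5.10). The cell cycle inhibitors Cdkn1a and Cdkn2a rose by 1.30 and 1.64 and Lmnb1, whose loss is a mark of senescent cells, fell by 2.92 on the log2 scale.

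The machinery that makes, ends and removes histone mRNA was down-regulated in part. Of 18 listed genes 17 were matched and tested, and 8 were down-regulated and none up-regulated (median -0.49). Slbp fell from 45.8 ± 9.66 to 17.1 ± 0.611 CPM (log2 fold change -1.42, SE 0.16, adjusted p = 0.000152, edgeR). Casp8ap2 (-0.80), Lsm11 of the U7 snRNP (-0.64), the end-processing factor Zfp473 (-1.77), Cstf2 (-0.79) and the exonuclease Eri1 (-0.76) were down-regulated as well. Npat, the coactivator of histone gene transcription, was at 49.0 CPM in non-senescent and 40.9 CPM in senescent PTEC (log2 fold change -0.26, adjusted p = 0.461, edgeR), and Ncbp2 of the cap-binding complex had 0.28.

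Replacement histones are made outside S phase as well, mostly from polyadenylated transcripts, although H2afx also makes a stem-loop-ended one. Of 11 listed genes, all tested, 5 were down-regulated and none was up-regulated (median -0.42). Cenpa, the histone H3 of centromeres, fell from 71.0 to 2.15 CPM, H2afz from 303 to 71.5 CPM and H2afx from 73.4 to 17.2 CPM. The linker histone H1f0 fell from 175 to 110.5 CPM (-0.66), whereas H3f3a and H3f3b were not called (-0.11 and -0.35). Of the 15 histone chaperones, which carry histones to and from DNA, 10 were down-regulated, led by Asf1b (-4.07), and Daxx had the highest value (0.47, adjusted p = 0.0208, edgeR, below the fold threshold). The difference between these lists and the clustered genes was not tested. The filter also favoured clustered genes that were high in senescent PTEC, as described above.

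**Figure D3:**
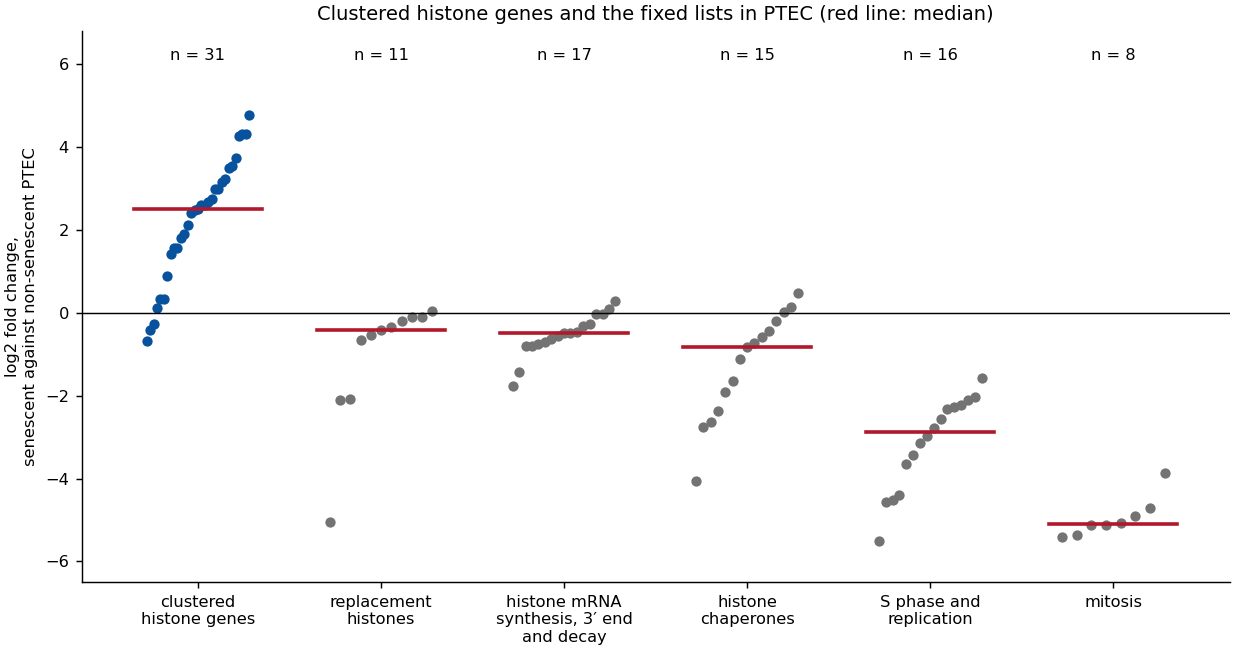
Log2 fold change of senescent against non-senescent PTEC (vertical axis) of each tested gene in the clustered histone genes and in 5 other lists; points are genes, ordered by value within a list, and red lines are medians. The median of the 31 tested clustered histone genes is 2.51 and the medians of the other lists run from -0.42 to -5.10. Of the 31, 15 reached the filter minimum in all senescent but not in all non-senescent cultures, so part of this median follows from the filter.

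In whole kidneys 17 clustered histone genes could be tested, 16 of them also tested in PTEC and the other Hist1h2bk. Hist1h2bc in place of Hist1h1c had the highest mean level at each age. In the second kidney of 3 months and the first of 24 months Hist1h1c was above Hist1h2bc. Hist1h2bc was at 198, 136 and 269 CPM at 3 months, at 174.5, 227 and 165 CPM at 12 months and at 116, 208 and 136.5 CPM at 24 months. Hist1h1c was at 99.2, 139.6 and 115 CPM, at 98.2, 93.0 and 106 CPM and at 127, 156 and 112 CPM. Together they made up 89.7%, 91.6% and 90.0% of the summed level of the 70 genes, which was 356 ± 63.4, 314 ± 32.3 and 317 ± 76.9 CPM (SD, n = 3 each) at the 3 ages, with overlapping ranges. Within each age the kidney with the highest sum (the third of 3 months, the second of 12 and the second of 24 months, at 427, 352 and 406 CPM) also had the most transcript of the erythroid markers (896, 577 and 858 CPM, against 294 to 514.5 CPM in the other kidneys) and the least of the proximal tubule markers (6043, 7034 and 9981 CPM, against 8581 to 13670 CPM). The part of blood cells and of tubular content in the histone values was not tested.

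Per kb of exon, the 6 highest genes in every age group were Hist1h2bc, Hist1h1c, Hist1h4i, Hist1h4h, Hist3h2a and Hist1h4c. Hist1h2bc was at 174, 163 and 133 CPM per kb at 3, 12 and 24 months and Hist1h1c at 75.5, 63.5 and 84.4 CPM per kb. The order of these genes changed with Hist1h4h, which followed Hist1h1c at 3 months (11.5 ± 3.94 CPM per kb) and came last of the 6 at 12 months (2.48 ± 0.522 CPM per kb). Below the first 3 genes the neighbours in the order differed by less than their spread at 12 and 24 months. In non-senescent PTEC the highest were Hist1h1c (50.2), Hist1h2bc (35.5), Hist1h4i (11.7) and Hist2h2be (4.17), and in senescent PTEC Hist1h1c (219), Hist1h2bc (95.6), Hist1h4h (21.1) and Hist1h4i (12.8), all in CPM per kb.

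**Figure D4:**
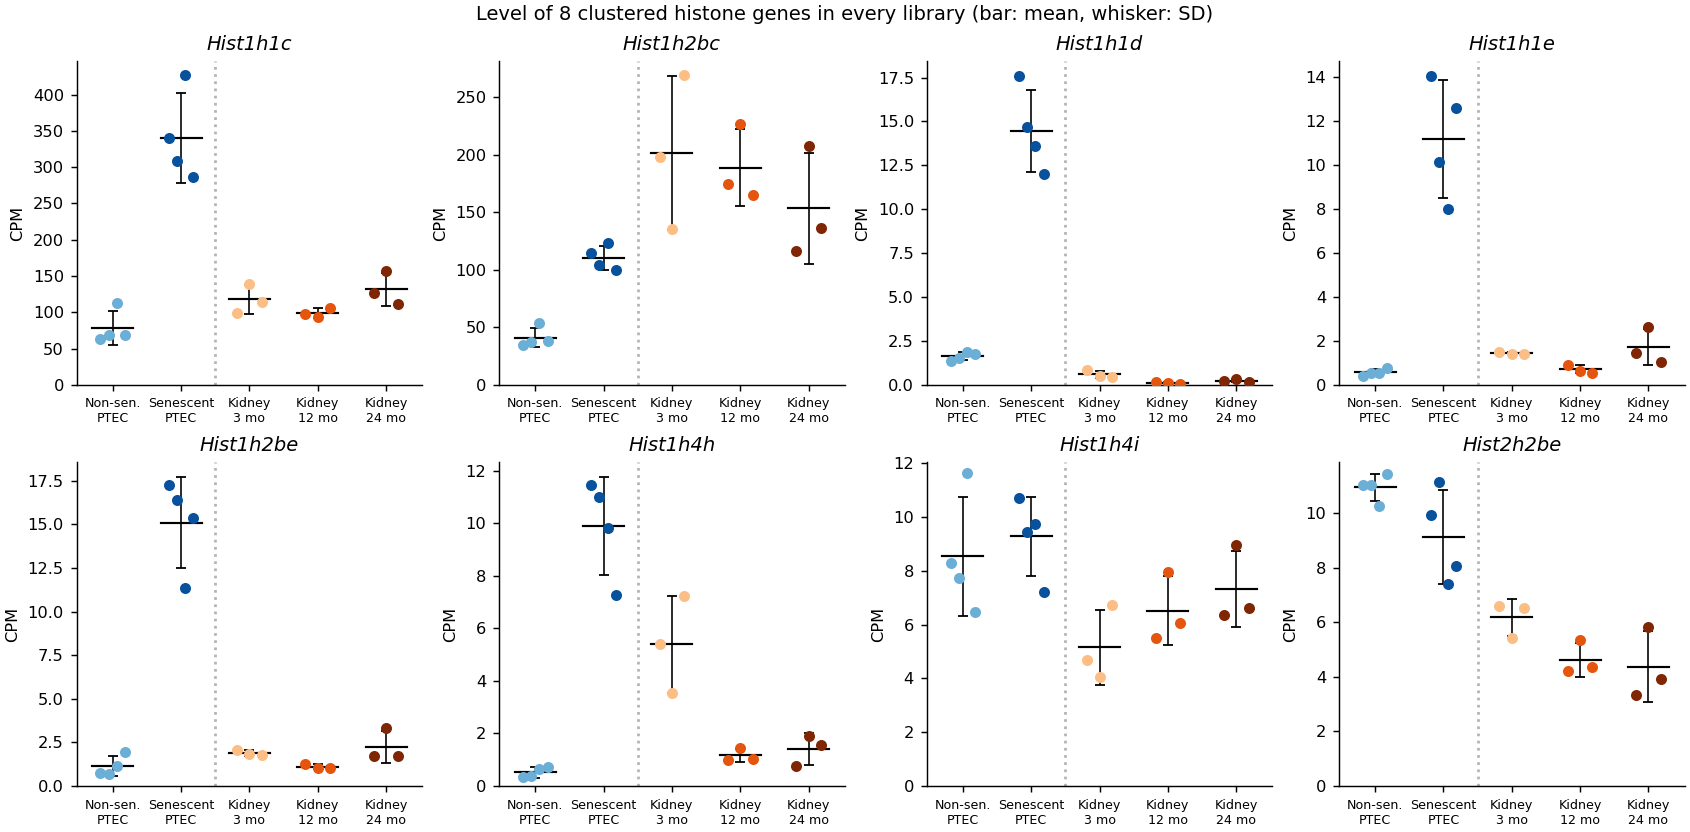
Level in CPM (vertical axes, each starting at 0) of 8 clustered histone genes in the 4 non-senescent and 4 senescent PTEC cultures and in 3 kidneys each at 3, 12 and 24 months; points are libraries, bars are means and whiskers are SD. The first 6 genes are higher in every senescent than in every non-senescent culture, Hist1h4i and Hist2h2be overlap, and Hist1h4h is higher in the 3 kidneys of 3 months than in all older ones.

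Between 3 and 24 months 1 of the 17 tested genes was called. It was Hist1h4h, which was down-regulated (0.451% of all 17067 tested genes were), and none was up-regulated (1.89% of all were); 2 of the 17 had an unadjusted p below 0.05, and DESeq2 also called none up-regulated. The ages did not overlap for 3 genes, all lower at 24 months, where 10.1% of all tested genes were lower without overlap. Hist1h4h was at 5.41, 3.54 and 7.24 CPM at 3 months and at 0.748, 1.92 and 1.55 CPM at 24 months. The ages did not overlap (log2 fold change -1.94, SE 0.38, adjusted p = 0.0374, edgeR). With 5 of the 6 libraries of these ages left out in turn, all but the second kidney of 3 months, the call was lost (adjusted p from 0.0560 to 0.142), and so it was with the 2 ages fitted alone (0.0769), while the log2 fold change stayed between -2.22 and -1.63.

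Between 3 and 12 months Hist1h4h and Hist1h1d were down-regulated (1.36% of all tested genes were) and none was up-regulated (1.22%), also none by DESeq2; 5 of the 17 had an unadjusted p below 0.05. Hist1h4h was at 1.01, 1.45 and 1.04 CPM at 12 months (log2 fold change -2.21, SE 0.39, adjusted p = 0.0289, edgeR). Hist1h1d was at 0.840, 0.492 and 0.472 CPM at 3 months and at 0.139, 0.0987 and 0.0386 CPM at 12 months (log2 fold change -2.66, SE 0.49, adjusted p = 0.0323, edgeR), which are 21 to 32 and 2 to 8 counts. Both calls were lost when any of the 6 libraries but the second kidney of 3 months was left out (adjusted p from 0.0595 to 0.138), while the log2 fold changes stayed between -2.43 and -1.94 for Hist1h4h and between -3.06 and -2.32 for Hist1h1d. Without overlap of the ages 7 genes were lower at 12 months, where 9.4% of all tested genes were. Of the 17 genes 15 had a negative log2 fold change (median -0.56), against 11 at 24 months (median -0.16), and these comparisons share the 3-month kidneys. The filter minimum (0.172 CPM) was reached by 15 of the 17 in all 3-month kidneys, by 12 in all 12-month and by 14 in all 24-month ones. Hist1h1d was below it in every 12-month kidney. Part of the negative values and calls at 12 months may therefore follow from the filter.

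The 3-month kidneys were counted on another gene set than the older ones, so age and gene set cannot be told apart in both comparisons. The older set holds 1629 identifiers that the younger one lacks, and 260 of them have no position in the annotation used here, so whether any lies over a histone gene could not be checked. Another H4 gene below the filter, Hist1h4k, had 6, 6 and 9 counts at 3 months, 0, 0 and 1 at 12 months and 1, 2 and 1 at 24 months (chosen after its values were seen). It was called down-regulated at 12 against 3 months without the filter (log2 fold change -4.29, adjusted p = 0.0350, edgeR) and by DESeq2 (-4.68, adjusted p = 0.0338). Hist1h4i, on the other hand, was at 4.70, 4.06 and 6.73 CPM at 3 months, 5.50, 7.96 and 6.08 CPM at 12 months and 6.37, 8.95 and 6.64 CPM at 24 months. It was not called in either comparison (log2 fold change 0.34 and 0.50, adjusted p = 0.583 and 0.304, edgeR).

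Kidneys of 12 and 24 months were counted on the same gene set, and between them none of the 17 genes was called by edgeR (0.896% of all tested genes were up-regulated and 0.434% down-regulated), 5 had an unadjusted p below 0.05, and DESeq2 called 1 up-regulated, Hist1h1e (adjusted p = 0.0337). All 5 were higher at 24 months without overlap of the ages, where 13.5% of all tested genes were. Hist1h1e was at 0.902, 0.642 and 0.560 CPM against 1.45, 2.61 and 1.06 CPM (log2 fold change 1.28, SE 0.35, adjusted p = 0.124, edgeR). Hist1h2be was at 1.25, 1.04 and 1.02 CPM against 1.74, 3.30 and 1.69 CPM (log2 fold change 1.02, SE 0.29, adjusted p = 0.131, edgeR). For both the second kidney of 24 months was the highest, and without it the log2 fold changes were 0.84 and 0.64. That kidney also had the highest summed B and plasma cell markers of its age (104 against 15.8 and 29.5 CPM), besides the erythroid and tubular values given above. Hist2h3c2, Hist1h1c and Hist1h1d had log2 fold changes of 0.93, 0.41 and 1.37. With kidneys of the same number paired and these ages fitted alone, Hist1h1e, Hist1h2be and Hist2h3c2 were up-regulated (adjusted p from 0.0282 to 0.0436), where 7.77% of all tested genes were.

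**Figure D5:**
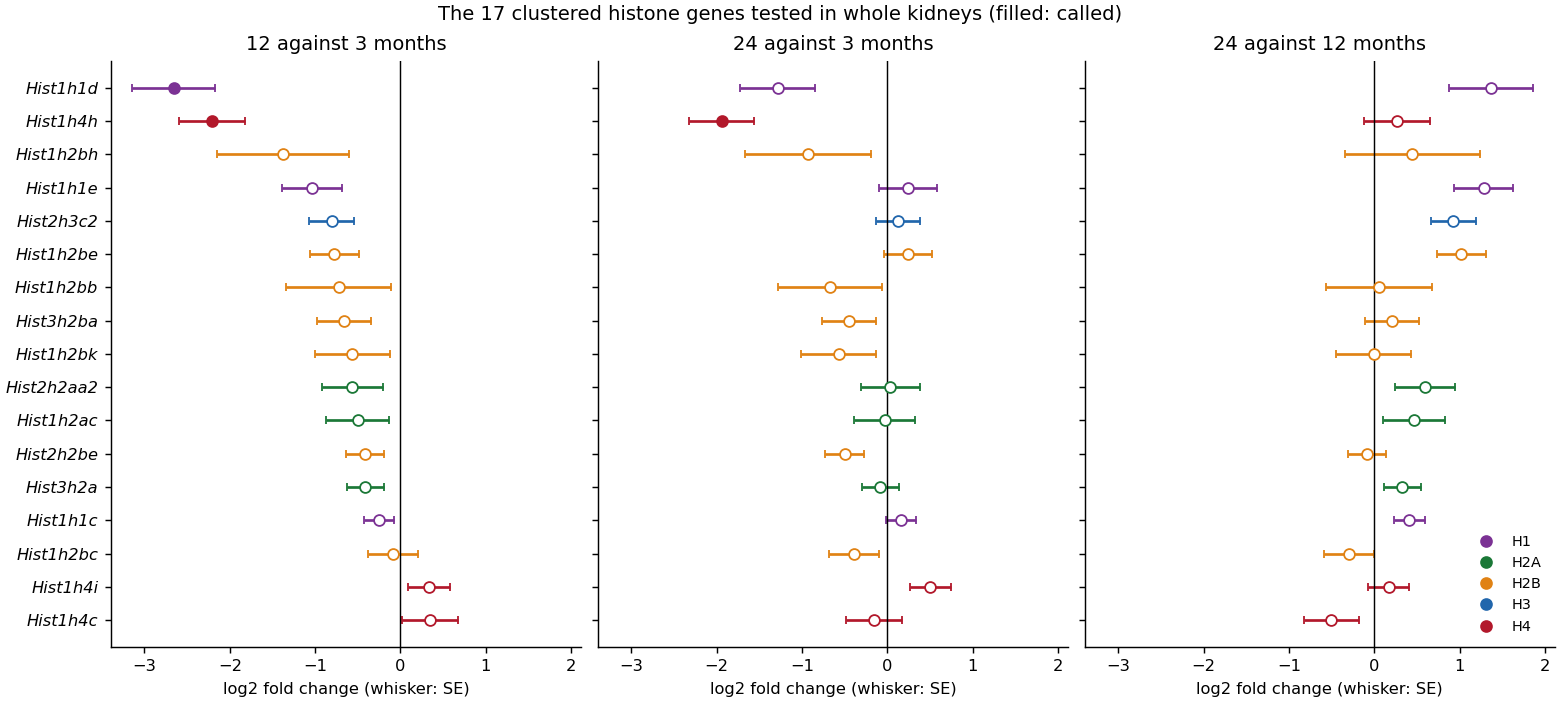
Log2 fold change (horizontal axes) of the 17 clustered histone genes tested in whole kidneys, for 12 against 3, 24 against 3 and 24 against 12 months; whiskers are the SE, colours are classes and filled points were called. Hist1h1d and Hist1h4h are filled at 12 against 3 months, Hist1h4h is filled at 24 against 3 months, and no point is filled at 24 against 12 months.

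The other gene lists give the kidney values their setting. Mitosis genes were higher at 24 months, with 4 of 8 up-regulated against 3 months (median 1.56) and 4 of 8 against 12 months (median 2.26), and their summed level was 7.27 to 7.99 CPM at 3 months, 4.84 to 5.61 CPM at 12 months and 16.5 to 37.5 CPM at 24 months. In the S phase and replication list only Mcm5 was called, lower at 12 than at 3 months (-0.69) and higher at 24 than at 12 months (1.18). The summed S phase genes were at 155 to 171 CPM at 3 months, 134 to 141 CPM at 12 months and 162 to 176.5 CPM at 24 months. The sums of the senescence list (4 genes, 3 tested) were 16.65 to 24.6, 8.06 to 10.1 and 28.1 to 40.8 CPM. Of its genes 1 was down-regulated at 12 against 3 months. In each comparison of 24 months with a younger age 1 was up-regulated. All 3 sums were thus lowest at 12 months without overlap, and their part in the histone values was not tested. No replacement histone, histone chaperone or gene of the histone mRNA list was called in any kidney comparison. B and plasma cell markers (2 of 6) and T cell markers (3 of 6) were up-regulated at 24 against 3 months, and 1 marker of each list at 12 against 3 months. The summed leukocyte markers were 32.3 to 43.2 CPM at 3 months, 53.9 to 66.6 CPM at 12 months and 59.4 to 87.2 CPM at 24 months. The summed fibroblast markers were 123 to 142 CPM, 149.8 to 159 CPM and 191 to 232.5 CPM at the 3 ages, without overlap. The endothelial ones were 129 to 180 CPM, 204 to 218 CPM and 127 to 220.5 CPM. No gene of these 3 lists was called at 12 against 3 months. The part of these cells in the histone values was not tested.

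Hist1h4h and Hist1h1d were the genes called both in PTEC and in kidneys, and in opposite directions. Each was up-regulated in senescent PTEC and down-regulated at 12 against 3 months, and at 24 against 3 months Hist1h4h alone was called, with the kidney calls resting on few libraries as given above. Hist1h1c and Hist1h2bc, which rose in senescent PTEC, had log2 fold changes of 0.16 and -0.39 between 3 and 24 months and were not called (adjusted p = 0.602 and 0.459, edgeR).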

How the data were processed

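The authors sequenced stranded, poly(A)-selected libraries (read length 76 bases, paired) and deposited raw counts per Ensembl gene for each sample, made with nf-core/rnaseq on GRCm38; the aligner, the counter and the strand setting are not given in the sources used here. PTEC, 3-month kidneys and older kidneys came with 3 gene sets (53715, 54146 and 55401 identifiers), joined by identifier without version, with symbols from GENCODE M21. No library pair of a group agreed within counting error.

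The deposited counts were tested with edgeR 4.0.16 (R 4.3.3; TMM, filterByExpr, robust quasi-likelihood), PTEC and kidneys in separate fits, with Benjamini-Hochberg adjustment over all genes tested. Calls required an adjusted p under 0.05 with a log2 fold change beyond 0.5 in either direction. Fold changes are edgeR's, SE derived from its F statistic, and the test was checked on simulated counts. DESeq2 1.42.0 was an alternative. Levels in the 5 groups had been planned on 1 common scale but were scaled per experiment.

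The genes and lists were chosen with earlier results of these data known. Values in every sample are given for called genes of at least 1 CPM (the 8 largest per direction), the 6 highest per kb in each group, genes called in PTEC and kidney, and, from each list, called genes or the extremes; other genes were named after their values were seen. Same-numbered PTEC cultures deviated together (correlations of 0.19 to 0.61 over 4 pairs), and every culture correlated best with its own number. Same-numbered kidneys of 12 and 24 months also deviated together (0.17 to 0.56 over 3 pairs), but not those of 3 months. The third kidneys of 12 and 24 months each correlated better with the first kidney of the other age (0.27 and 0.19) than with each other (0.17). The labels do not say that kidneys of the same number share anything. Where cultures come from separate mice is not stated, so p-values measure the spread between these samples.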

Additional observations from a re-analysis of the deposited data

Results flagged for a closer look

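In each group of 4 PTEC cultures the values of the named genes of at least 1 CPM and of the class sums were searched for a culture that stood far from the other 3, in 38 sets of 4 values. Chance alone gives such a result in about 5% of sets, and the sets share cultures and genes. In non-senescent PTEC, culture 3 stood above the others for Hist1h1c (113 against 63.2 to 69.0 CPM), with a gap of 0.885 of the whole range. The same culture stood apart for sums that contain this gene, at 0.872 for all 70 genes, 0.871 for the H1 genes and 0.864 for the genes tested in PTEC. It also stood apart, at 0.866, for the sum without Hist1h1c and Hist1h2bc (43.1 against 35.9 to 36.8 CPM). In senescent PTEC, culture 1 stood above the others for the summed H2A genes (26.2 against 24.3 to 24.5 CPM), with a gap of 0.881 of the range. The log2 fold change of Hist1h1c was 2.12 with all cultures and 2.36 without non-senescent culture 3.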

How the results depend on the processing

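In PTEC the count of up-regulated genes stayed between 24 and 31 under all other settings that use the 70 genes, and was 17 with either restriction to fewer of them; leaving out single cultures gave 24 to 28 up-regulated and 0 to 1 down-regulated, and the replicate block gave 24. In kidneys the down-regulated counts were not stable. At 24 against 3 months, leaving out single kidneys gave 0 to 1, the replicate block 0 and the compared ages alone 0. At 12 against 3 months these gave 0 to 2, 0 and 0, whereas no filter and DESeq2 gave 3 each, with Hist1h4k added. At 24 against 12 months the up-regulated count was 0 with single kidneys left out, 1 by DESeq2 with the settings of the study, and 3 with the replicate block and the compared ages alone, a setting chosen after the data were seen; the block over all 9 kidneys gave 0. Under the block Hist1h4h had an adjusted p of 0.0940 (24 against 3 months) and 0.0730 (12 against 3 months) and Hist1h1d 0.0635. The mean summed level moved by less than its SD under plain library sizes and with single libraries left out (141 to 165 and 547 to 603 CPM in non-senescent and senescent PTEC). Log2 fold changes near 0 changed sign when 1 kidney was left out. At 24 against 3 months the ranges were -0.0802 to 0.18 for Hist2h2aa2, -0.20 to 0.49 for Hist1h1e, -0.14 to 0.41 for Hist1h2be, -0.0587 to 0.35 for Hist2h3c2, -0.25 to 0.0469 for Hist3h2a and -0.40 to 0.0483 for Hist1h4c. At 12 against 3 months the range was -0.30 to 0.18 for Hist1h2bc, and at 24 against 12 months -0.0175 to 0.57 for Hist1h4h and -0.34 to 0.0794 for Hist2h2be. The causes were not tested. Over all genes, the calls (up and down) at 24 against 3 months were 322 and 77, but 102 and 24 with the replicate block and 727 and 308 by DESeq2. At 12 against 3 months they were 209 and 232, with 52 and 66 under the block, 38 and 26 with the compared ages alone and 531 and 576 by DESeq2. At 24 against 12 months they were 153 and 74, with 0 and 0 under the block, 1297 and 903 with the block and these ages alone, and 493 and 286 by DESeq2. Hist1h1d rests on 2 to 8 counts at 12 months.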
